A study of Rattus norvegicus with 15 samples.

Results

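The cell cycle genes of the rat posterior cerebral artery were followed through 5 groups of arrays: genes of DNA replication, genes of mitosis, cyclins and kinases of the G1 phase, cell cycle inhibitors, and a small set of chromatin and microtubule proteins that dividing cells make in quantity. The list held 53 genes, of 10411 genes with a probe set of their own on the array. Of the 53, 41 had such a probe set, and the one with the highest mean signal over all 15 arrays stood for the gene. All 41 passed the minimum for testing, at least 3 arrays that reached a signal of 100. The 12 genes without one were Cdk2, Rrm2, Gmnn, Ccna2, Bub1, Tpx2, Cenpf, Kif11, Kif23, Nusap1, Prc1 and Hmgb2. Rrm2 and Hmgb2 each had 1 probe set that also matches another gene, which was not used. Measured were 5 of 6 G1 genes, 13 of 15 replication genes, 18 of 26 genes of G2 and mitosis, 3 of 3 inhibitors and 2 of 3 chromatin and microtubule genes.

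The arteries came from Sprague Dawley rats aged 7 weeks that weighed 300 to 350 g, and the posterior cerebral artery was taken on the ipsilateral side. In the 3-vessel occlusion (3VO) both vertebral arteries were electrocoagulated and the left common carotid artery was ligated, under isoflurane with buprenorphine. In sham surgery the same vessels were laid open and left untouched under the same drugs. Operated rats were studied 24 h or 3 d later, and intact rats without surgery were the untreated background. In all groups the vessels were filled with latex under papaverin before dissection, and each array held RNA of 8 pooled rats. Each of the 5 groups had 3 arrays. The study asked which genes respond early when this artery takes over flow to a poorly supplied forebrain. The labels speak of repeated hybridisation, so whether the arrays of a group hold separate animals is unclear, and p-values measure the spread between these arrays.

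A cell that enters the cycle first raises D-type cyclins, which with Cdk4 release the E2F factors from the retinoblastoma protein. E2F then drives the replication genes: the Mcm helicase that unwinds DNA, the Pcna clamp that holds the polymerase, and the enzymes that make nucleotides. Genes of mitosis come on later, through promoter elements called CHR and CCAAT boxes that are bound by the DREAM and B-Myb complexes and by NF-Y. In the wall of an adult artery most cells rest, and outward growth of collateral arteries is known to involve division of smooth muscle and endothelial cells and an influx of macrophages.

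The promoters are shown for 3 mitotic and 2 replication genes of the results below, because the 2 roles differ in how often they hold these letters. Each run covers 250 bases before and 50 bases after the RefSeq start site of assembly GRCr8, 5′ to 3′ on the strand of the gene. Capitals mark, in both orientations, the CHR element TTTGAA with its reverse complement TTCAAA, the CCAAT box with its reverse complement ATTGG, and the E2F sites TTTCCCGC and TTTGGCGC with theirs. Mki67 lies at chr1:199952544-199952843 (minus strand), Cks2 at chr17:13727470-13727769 (minus), Cdk1 at chr20:19265043-19265342 (plus), Mcm7 at chr12:22163129-22163428 (minus) and Mcm3 at chr9:30733697-30733996 (minus).
Mki67: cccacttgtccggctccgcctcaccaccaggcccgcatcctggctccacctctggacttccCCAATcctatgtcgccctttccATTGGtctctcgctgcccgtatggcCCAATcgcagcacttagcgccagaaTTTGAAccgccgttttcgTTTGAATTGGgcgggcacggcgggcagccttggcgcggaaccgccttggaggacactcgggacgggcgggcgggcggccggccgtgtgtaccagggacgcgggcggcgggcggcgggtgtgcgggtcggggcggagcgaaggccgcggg
Cks2: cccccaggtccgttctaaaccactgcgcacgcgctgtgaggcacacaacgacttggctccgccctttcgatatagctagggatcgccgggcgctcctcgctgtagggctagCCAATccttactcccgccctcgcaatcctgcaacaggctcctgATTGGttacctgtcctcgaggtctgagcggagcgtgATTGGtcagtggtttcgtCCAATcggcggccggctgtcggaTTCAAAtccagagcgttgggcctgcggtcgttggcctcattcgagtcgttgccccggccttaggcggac
Cdk1: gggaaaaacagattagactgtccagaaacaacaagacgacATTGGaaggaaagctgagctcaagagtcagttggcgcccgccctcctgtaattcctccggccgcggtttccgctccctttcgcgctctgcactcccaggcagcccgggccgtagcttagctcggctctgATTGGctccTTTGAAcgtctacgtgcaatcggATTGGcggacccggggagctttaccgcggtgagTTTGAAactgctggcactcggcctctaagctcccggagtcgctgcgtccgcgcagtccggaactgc
Mcm7: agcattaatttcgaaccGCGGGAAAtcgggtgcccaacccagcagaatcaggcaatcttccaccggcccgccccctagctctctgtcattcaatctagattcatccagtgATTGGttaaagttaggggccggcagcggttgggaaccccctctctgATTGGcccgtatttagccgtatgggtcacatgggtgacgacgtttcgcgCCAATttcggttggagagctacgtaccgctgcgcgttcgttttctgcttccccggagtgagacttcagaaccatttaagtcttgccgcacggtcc
Mcm3: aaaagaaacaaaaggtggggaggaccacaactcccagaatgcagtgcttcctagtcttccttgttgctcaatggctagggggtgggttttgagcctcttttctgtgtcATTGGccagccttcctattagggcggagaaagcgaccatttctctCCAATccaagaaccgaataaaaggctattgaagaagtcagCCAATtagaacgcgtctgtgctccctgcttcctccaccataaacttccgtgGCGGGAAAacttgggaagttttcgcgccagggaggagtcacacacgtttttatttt

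Positions count from the start site to the first base of a match on the strand of the gene. The CHR element began at -117 and -99 in Mki67, at -72 and -16 in Cdk1 and at -19 in Cks2. The Mki67 copy at -99 shares a base with the CCAAT box that follows it. The E2F letters began at -233 in Mcm7 and at -6 in Mcm3, and both promoters also held 3 CCAAT boxes and no CHR element. Among measured mitotic genes, 15 had a promoter entry, and 11 of these 15 (73.3%) held a CHR element, 13 (86.7%) a CCAAT box and 0 an E2F site as spelled here. Among the 12 replication genes with an entry, 1 (8.33%, Mcm2) held a CHR element, 6 (50%) a CCAAT box and 5 (41.7%; Mcm3, Mcm5, Mcm6, Mcm7 and Tyms) an E2F site. Over all 33469 promoters of the same length the shares were 18.3%, 37.5% and 1.45%. The mitotic genes without a CHR element were Cdca3, Kif20a, Ccnb1 and Aurka. Pcna and Rrm1 were among the replication genes without an E2F site as spelled here. The GC box GGGCGG, searched as a comparison, was held by 73.3% of the mitotic and 75% of the replication promoters, against 33.1% of all. Of the inhibitors, Cdkn3 had a CHR element, at -149. A match is a description of the letters and was not tested as a binding site. Ccnd1, Ccnd2, Mcm4, Aurkb, Ube2c and Racgap1 were measured but not searched.

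The array values were a linear signal. Per array its trimmed mean was 4994 to 4998, its median ranged from 2559 to 2941, and 1.33% to 5.19% of its values were under 100. The number of arrays, 3 a group, limits the precision. A signal orders arrays for 1 probe set and is not compared between genes. Differences are in log2(signal + 16), so 1 is a doubling of a bright gene, and they understate changes of dim ones. Each probe set was tested with limma in a fit of 5 group means to all 15 arrays, and rose or fell where its Benjamini-Hochberg adjusted p over 15737 probe sets was under 0.05. In samples of whole arteries, fewer cells of a type and less RNA per cell cannot be told apart. Intact replicate 2 and sham 3 d replicate 3 stood apart by markers of the choroid plexus, with summed signals of 389100.0 and 363796 over 7 genes against 15409 to 205603 on the other 13 arrays. The treatment text of sham 3 d replicate 1 describes the occlusion, against its title. Of the markers of the labelled tissue, 10 of 10 smooth muscle and 8 of 10 endothelial genes had a probe set, each with a mean signal above 1000.

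Most mitotic genes were at higher signal after 3VO than after sham surgery at both times, with the larger median difference at 3 d. At 3 d, 18 of 18 were higher, with a median log2 difference of 0.69, and at 24 h 16 of 18, with a median of 0.32. In the limma test of the change between the times, no mitotic gene had an unadjusted p under 0.05. Of 25 further genes of G2 and mitosis outside the list, 16 were higher at 24 h and 19 at 3 d, with medians of 0.13 and 0.16. Replication genes were higher in 12 of 13 at both times, with medians of 0.25 at 24 h and 0.27 at 3 d. The inhibitors Cdkn1a and Cdkn1b, which hold cyclin-dependent kinases in check, differed by -0.11 and -0.01 at 24 h and by -0.11 and 0.02 at 3 d. Cdkn3, the remaining listed inhibitor, differed by 0.94 at 24 h and by 1.87 at 3 d. Over all 15737 probe sets, 47.3% were higher at 24 h and 48.5% at 3 d, with medians of -0.02 and -0.01. The members were listed with earlier results of these data known, so counts and medians of roles are descriptions and were not tested.

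Against sham surgery no member passed the adjusted test at either time. At 24 h 0 of 41 members passed, where 0.0508% of all probe sets did, and 7 members had an unadjusted limma p under 0.05, all of them higher, where 6.97% of all probe sets had one. At 3 d 0 of 41 passed, where 0% of all probe sets did, and 11 had an unadjusted p under 0.05, again all higher, where 4.73% of all probe sets had one. Each 3VO array was above each sham array for 10 members at 24 h and 12 at 3 d. That separation was found upward in 6.42% and 4.34% of all probe sets. It was found downward at 24 h for 1 member, Ccnd1, and for 9% of all probe sets.

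**Figure D1:**
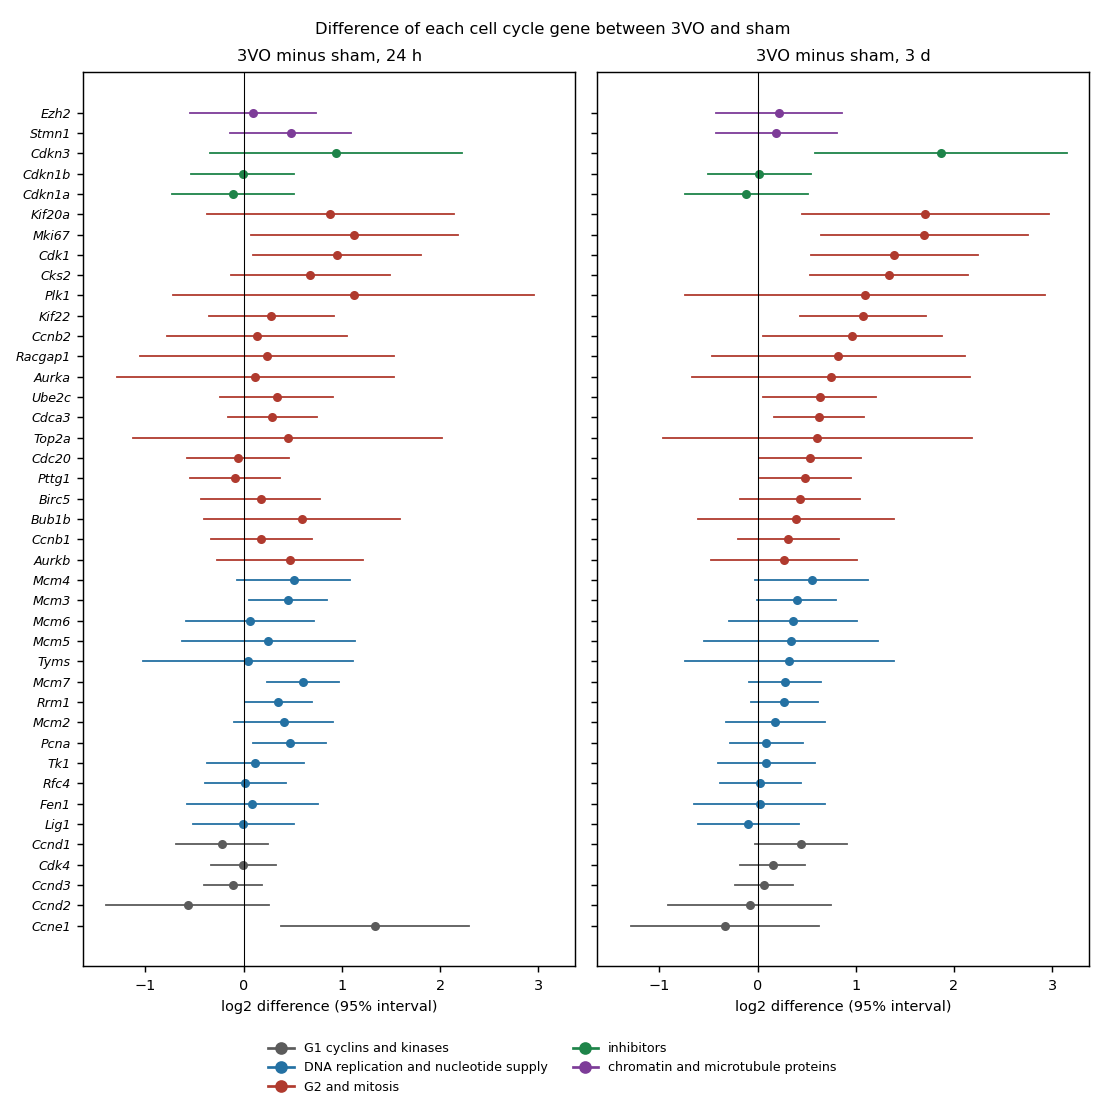
Log2 difference of each of the 41 measured cell cycle genes between 3VO and sham arteries at 24 h (left) and 3 d (right), with points at the difference of group means of 3 arrays each, bars for 95% intervals of the limma fit without adjustment, and colours for the roles. The 18 mitotic genes (red) lie to the right of 0 at 3 d, from 0.27 to 1.71. The largest replication difference (blue) is 0.60 at 24 h, and at 3 d these genes run from -0.09 to 0.55, overlapping the mitotic range.

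Against intact arteries, members passed in the 3VO groups. After 24 h of 3VO 1 of 41 members rose, Mki67, where 0.184% of all probe sets passed. After 3 d of 3VO 3 of 41 rose, Mki67, Cks2 and Cdca3, where 0.222% of all probe sets passed. Unadjusted p-values under 0.05 were reached by 9 members at 24 h and 18 at 3 d, all higher, where 9.96% and 12.9% of all probe sets had one. All 3 arrays lay above the intact arrays for 13 members at 24 h and 20 at 3 d, where 7.59% and 10.3% of all probe sets did. The 4 comparisons with intact arteries share the 3 intact arrays. These carry the last array numbers of the series, so array order and the intact state cannot be told apart.

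Of the G1 genes, the 3 D-type cyclins and Cdk4 were bright on every array, and none of these 4 had an unadjusted p under 0.05 between 3VO and sham at either time. Ccnd1, the D-type cyclin most often tied to growth signals, gave 11038, 10549.9 and 9871 after sham and 7996, 9651 and 9345 after 3VO at 24 h, and 5994, 12989 and 6707 after sham and 11883, 10646 and 10375 after 3VO at 3 d, with 7900.4, 10344 and 8409 on intact arrays. At 24 h the 3VO arrays all lay below the sham arrays, while at 3 d sham replicate 2 lay above all others and the groups overlapped. The log2 differences were -0.22 at 24 h (adjusted p = 0.891) and 0.44 at 3 d (adjusted p = 0.999). Its other 2 probe sets gave -0.32 and -0.30 at 24 h and 0.19 and -0.15 at 3 d, so the probe sets disagreed in sign at 3 d.

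Ccnd2, another D-type cyclin, ranged widely, with 8943, 20503 and 5216 on intact arrays. After sham it gave 7912, 13960.2 and 16237 at 24 h and 14308, 14463 and 14356 at 3 d, and after 3VO 7470.5, 11954 and 6111 at 24 h and 13242, 11361 and 16657 at 3 d. The 3VO and sham arrays overlapped at both times, with log2 differences of -0.57 and -0.08. Cdk4, the kinase partner of the D-type cyclins, gave 16796, 14322 and 16265 after sham and 15653, 15968 and 15512 after 3VO at 24 h, and 13866, 12368 and 12767 after sham and 13544, 17073 and 13095 after 3VO at 3 d. Intact arrays spanned 10608 to 17151, and all 12 operated arrays lay within that range. Its log2 differences were -0.0044 (95% interval -0.34 to 0.33) and 0.16 (-0.17 to 0.49), and those of Ccnd3 were -0.11 and 0.07.

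Ccne1, the cyclin that partners Cdk2 at the entry into S phase, had its larger difference from sham at 24 h. At 24 h it gave 415, 1216 and 294 after sham and 1812, 1312 and 1079.8 after 3VO. At 3 d it gave 1141, 1314 and 1234 after sham and 689, 999 and 1338 after 3VO, and intact arrays had 1568, 899 and 1294. Sham replicates 1 and 3 at 24 h were the lowest of all 15 arrays, and sham replicate 2 lay among the 3VO arrays. Its log2 difference was 1.34 at 24 h (SE 0.45, unadjusted p = 0.00938, adjusted p = 0.536) and -0.33 at 3 d. The difference between these effects was -1.67 (unadjusted p = 0.0191, adjusted p = 0.999).

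Of the replication genes, the helicase subunits Mcm7 and Mcm3, the clamp Pcna and the large subunit of ribonucleotide reductase, Rrm1, had the smallest p-values between 3VO and sham at 24 h. Mcm7 gave 2586, 3527 and 3294 after sham and 4509, 4839 and 4858 after 3VO at 24 h, and 3222, 3047 and 2742 after sham and 3689, 4132 and 3181 after 3VO at 3 d, with 3289, 3882 and 4385 on intact arrays. The 3VO arrays at 24 h were above all 12 others. The log2 difference from sham was 0.60, SE 0.17 at 24 h (1.52-fold, unadjusted p = 0.00309, adjusted p = 0.414) and 0.28 at 3 d, and the difference between 3VO at 3 d and 3VO at 24 h was -0.37 (unadjusted p = 0.045, adjusted p = 0.845).

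Pcna gave 15384, 13292 and 14218 after sham and 21419.6, 18578 and 19294 after 3VO at 24 h, and 15259, 13133 and 13038 after sham and 13307, 14280.0 and 16567 after 3VO at 3 d. Intact arrays had 14283, 10473 and 19078, and the third of them fell among the 3VO arrays at 24 h. The 24 h groups did not overlap, and by 3 d they did. The log2 difference was 0.47, SE 0.17 at 24 h (adjusted p = 0.605) and 0.09 at 3 d (95% interval -0.28 to 0.46). Within 3VO the 3 d arrays were all below the 24 h arrays (-0.43, unadjusted p = 0.0256, adjusted p = 0.845).

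Mcm3 was separated from sham at both times. It gave 1638, 1898 and 2044 after sham and 2880.4, 2528 and 2234 after 3VO at 24 h, 1822, 2003 and 2188 after sham and 2776, 2528 and 2614 after 3VO at 3 d, and 1791, 1999 and 2046 on intact arrays. Each of the 6 3VO arrays was above each of the 9 other arrays. The log2 differences from sham were 0.45 (adjusted p = 0.663) and 0.40 (adjusted p = 0.999).

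Mcm4 gave 1039, 1513 and 1604 after sham and 1719, 1849.6 and 2314 after 3VO at 24 h, and 1228, 1336 and 1394 after sham and 1959, 1911 and 1946 after 3VO at 3 d. The groups did not overlap at either time, but the first intact array, at 2288, lay with the 3VO arrays while the others had 1229.8 and 1342. Its log2 differences were 0.51 and 0.55 (adjusted p = 0.774 and 0.999). Rrm1 gave 2678, 3097 and 3151 after sham and 4059, 3869 and 3472 after 3VO at 24 h, and 2773, 3092 and 3134 after sham and 3081, 3840.2 and 4015 after 3VO at 3 d. Its intact arrays, at 3649, 3169 and 3227, were all above the sham arrays of both times. The log2 differences from sham were 0.35 (adjusted p = 0.709) and 0.27 (adjusted p = 0.999).

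The helicase subunits Mcm2 and Mcm6 were less separated. Mcm2 gave 2118, 1837 and 1441 after sham and 2472, 2568 and 2084 after 3VO at 24 h, 2130.5, 1962 and 1509 after sham and 1739.7, 2188 and 2412 after 3VO at 3 d, and 1211, 1289 and 1591 on intact arrays. All 6 3VO arrays lay above the intact arrays, and 3VO and sham overlapped at both times. Its log2 difference from intact was 0.80 after 3VO at 24 h (unadjusted p = 0.00422, adjusted p = 0.253). Mcm6 gave 2149.5, 2638 and 2414 after sham and 2594, 2458 and 2458 after 3VO at 24 h, and 1931, 2619.5 and 1407 after sham and 1539, 3319 and 2955 after 3VO at 3 d, with 1862, 1269.8 and 2228 on intact arrays. Its groups overlapped at both times, with log2 differences of 0.06 and 0.36.

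The other 6 replication genes were Mcm5, Tyms, Tk1, Fen1, Rfc4 and Lig1. These make a helicase subunit, 2 enzymes of thymidine nucleotide supply, a flap nuclease, a clamp loader subunit and a ligase. Their log2 differences from sham ran from -0.0032 (Lig1) to 0.25 (Mcm5) at 24 h and from -0.09 (Lig1) to 0.34 (Mcm5) at 3 d, and 3VO overlapped with sham for all 6. The other probe set of Tk1 gave -0.19 and -0.0040. The spread of Mcm5 on the sham arrays at 3 d was wide, with 999.8, 2868 and 5052.

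Counted over the 13 replication genes, 4 had an unadjusted limma p under 0.05 at 24 h (Mcm7, Pcna, Mcm3 and Rrm1) and 0 at 3 d, with lowest adjusted p of 0.414 and 0.999. Over all probe sets 6.97% and 4.73% had such a p. The 3VO arrays were above all sham arrays for 5 replication genes at 24 h and 2 at 3 d, where 6.42% and 4.34% of all probe sets were. Against intact arteries, 13 of 13 were higher after 3VO at 24 h and 10 of 13 at 3 d, with medians of 0.32 and 0.31 and none past the adjusted test.

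**Figure D2:**
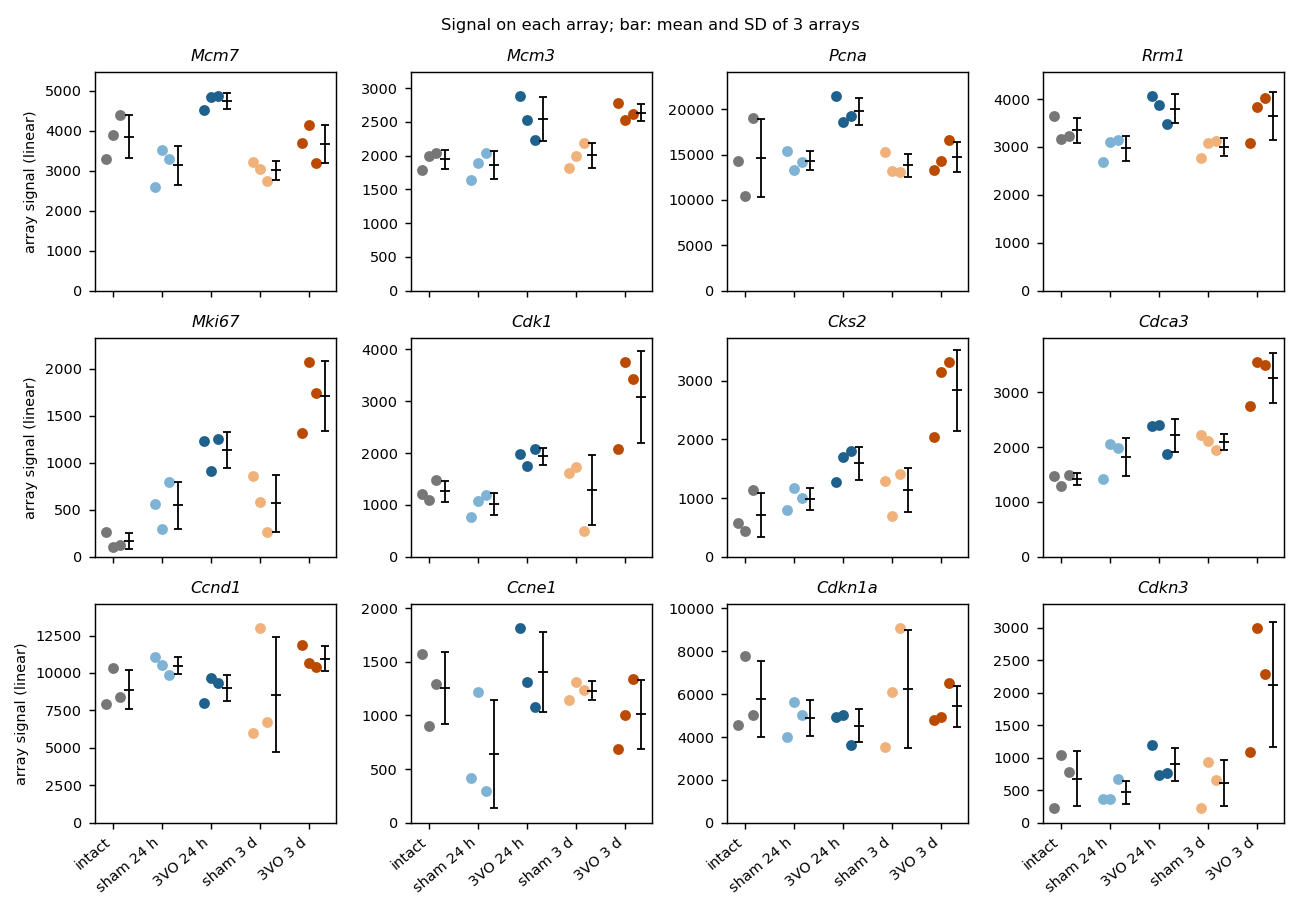
Array signal (linear scale from 0) of 12 cell cycle genes on each of the 15 arrays, 3 per group, with the group mean and its SD as a bar beside the points. Mcm7 and Pcna are highest in the 3VO group at 24 h, whereas Mki67, Cdk1, Cks2 and Cdca3 are highest in the 3VO group at 3 d, from 1319 to 2069 for Mki67 against 105 to 264 on intact arrays.

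Of the mitotic genes, Mki67, whose protein coats chromosomes in dividing cells and is the usual marker of proliferation, had the largest difference of all members from intact arteries. It gave 264, 105 and 127 on intact arrays, 559, 289.9 and 791 after sham and 1229.7, 914 and 1253 after 3VO at 24 h, and 861, 578 and 261 after sham and 1319, 2069 and 1746 after 3VO at 3 d. All 6 3VO arrays lay above all 9 others, and all but 1 of the 6 sham arrays lay above the intact arrays. Against intact arteries it rose with 3VO by 2.75, SE 0.49 at 24 h (adjusted p = 0.0433) and by 3.33, SE 0.49 at 3 d (adjusted p = 0.0277). The size depended on the pseudocount, since its intact signals were low: with 160 in place of 16 the log2 differences were 2.01 and 2.54, and both passed. Against sham the log2 differences were 1.12 (95% interval 0.07 to 2.18, adjusted p = 0.691) and 1.70 (0.64 to 2.75, adjusted p = 0.756). Without the sham 3 d array whose treatment text describes the occlusion, the difference from sham at 3 d was 2.07. Sham arteries differed from intact ones by 1.62 and 1.63 (adjusted p = 0.17 and 0.199).

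Cks2, a small protein that binds cyclin-dependent kinases, followed the same order of group means as Mki67. It gave 576, 433 and 1134 on intact arrays, 801, 1173 and 997 after sham and 1269, 1709 and 1799.6 after 3VO at 24 h, and 1296, 701 and 1416 after sham and 2047, 3155 and 3317 after 3VO at 3 d. The 3 d 3VO arrays were above all 12 others. Against intact arteries Cks2 rose with 3VO by 2.05, SE 0.38 at 3 d (4.15-fold, adjusted p = 0.0426), and at 24 h the difference was 1.24 (adjusted p = 0.275). Against sham it was 0.68 (adjusted p = 0.786) and 1.34 (adjusted p = 0.703).

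Cdca3, which takes part in the destruction of the mitosis inhibitor Wee1 at mitotic entry, was high in the same group. It gave 1477, 1289 and 1492 on intact arrays, 1419.7, 2051 and 1977 after sham and 2379.5, 2396 and 1866 after 3VO at 24 h, and 2229.5, 2114 and 1948 after sham and 2744, 3549 and 3492 after 3VO at 3 d. Its 3 d 3VO arrays were above all others, and its 3 d sham arrays were above the intact ones. Against intact arteries Cdca3 rose with 3VO by 1.19, SE 0.21 at 3 d (2.27-fold, adjusted p = 0.0356). Against sham at 3 d it was 0.63 (unadjusted p = 0.0102, adjusted p = 0.953), and at 24 h 0.29.

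The 4 calls depended on single arrays. Leaving out each array in turn, Mki67 passed in 12 of 15 fits at 3 d and in 6 of 15 at 24 h, Cks2 in 3 of 15 and Cdca3 in 5 of 15. At 3 d Mki67 had an adjusted p of 0.0721 without intact replicate 2, 0.133 without 3VO 3 d replicate 2 and 0.0617 without 3VO 3 d replicate 3, and it passed without each other array. At 24 h the 9 arrays whose absence ended its call were intact replicate 2 (0.178), the 3 of 3VO 24 h (0.143, 0.141 and 0.121), sham 24 h replicate 1 (0.0607), sham 3 d replicate 2 (0.066) and the 3 of 3VO 3 d (0.0538, 0.0661 and 0.0634). Cks2 passed only without intact replicate 3 (0.012), sham 3 d replicate 2 (0.0448) or sham 3 d replicate 3 (0.0481), and had adjusted p up to 0.219 without another. Cdca3 passed only without intact replicate 3, sham 24 h replicate 1, 3VO 24 h replicate 3, sham 3 d replicate 1 or sham 3 d replicate 3, from 0.0279 to 0.048, and had adjusted p up to 0.218 without another. Without both arrays rich in choroid plexus markers, an alternative chosen after seeing the data, Mki67 passed at 3 d (3.09, adjusted p = 0.0493). It did not pass at 24 h (0.105), nor did Cks2 (0.12) and Cdca3 (0.0988) at 3 d.

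Cdk1, the kinase whose activation with cyclin B starts mitosis, gave 774, 1073 and 1184 after sham and 1979.6, 1759.6 and 2081 after 3VO at 24 h, and 1621, 1739 and 503 after sham and 2069.6, 3753 and 3421 after 3VO at 3 d, with 1209, 1096 and 1485 on intact arrays. All 6 3VO arrays lay above all 9 others, and sham 3 d replicate 3 was the lowest array of the 15. The log2 differences from sham were 0.95 at 24 h (1.93-fold, adjusted p = 0.668) and 1.39 at 3 d (2.63-fold, unadjusted p = 0.00339, adjusted p = 0.72). Without sham 3 d replicate 3, which is one of the choroid plexus-rich arrays, the value at 3 d was 0.82, that of Mki67 1.24 and that of Kif20a 1.25 in place of 1.71.

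Kif22, a kinesin that moves chromosomes on the spindle, was separated from sham at 3 d and not at 24 h. It gave 779.8, 963 and 943 after sham and 1728, 1847 and 2124 after 3VO at 3 d, 1119, 761 and 1375 after sham and 1255, 1637 and 1036 after 3VO at 24 h, and 798, 821 and 1199.7 on intact arrays. The 3 d 3VO arrays were above all 12 others, and the 24 h groups overlapped. Its difference from sham was 1.07, SE 0.30 at 3 d (unadjusted p = 0.00278, adjusted p = 0.703) and 0.28 at 24 h.

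Top2a, the topoisomerase that untangles chromosomes, and Ccnb1, the B-type cyclin, were less separated from sham on the probe sets used. Top2a gave 753, 104 and 1085 on intact arrays, 933, 1308 and 1433 after sham and 2308, 1525 and 1281 after 3VO at 24 h, and 441, 1359.7 and 1653 after sham and 629, 2414 and 2340.5 after 3VO at 3 d. The first array of both 3 d groups was low, and 3VO and sham overlapped at both times. Its log2 differences from sham were 0.45 and 0.61, and those of its other probe set 1.61 (adjusted p = 0.346) and 0.84 (adjusted p = 0.999). On that other probe set the 24 h groups did not overlap, with 504, 468 and 791 after sham and 2455.5, 1797 and 1266 after 3VO. Ccnb1 gave 1994, 2012 and 1689.6 on intact arrays, 1208, 1972 and 1807 after sham and 2149.6, 1903 and 1528 after 3VO at 24 h, and 2559.5, 1908 and 1886 after sham and 2257, 2887 and 2726 after 3VO at 3 d. Its 3 d 3VO arrays were above all 3 at 24 h and overlapped with sham, at 0.18 and 0.31 from sham.

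The other 11 mitotic genes were Ccnb2, Birc5, Aurka, Aurkb, Bub1b, Plk1, Cdc20, Ube2c, Kif20a, Racgap1 and Pttg1. At 3 d their log2 differences from sham ran from 0.27 (Aurkb, a kinase of the chromosomal passenger complex) to 1.71 (Kif20a, a kinesin of cytokinesis). Among them 5 had an unadjusted p under 0.05 at 3 d, given here after the log2 difference. These were Kif20a (1.71, 0.0111), the B-type cyclin Ccnb2 (0.97, 0.0399), Ube2c (0.63, 0.0341) and Cdc20 (0.53, 0.0433), both of the ubiquitin machinery that starts anaphase, and the securin Pttg1 (0.49, 0.0391), which that machinery destroys. The lowest adjusted p of the 5 was 0.953.

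At 24 h the same 11 genes ran from -0.08 (Pttg1) to 1.12 (Plk1, a kinase of spindle assembly), with no unadjusted p under 0.05 by limma. Plk1 spread widely, with 675, 1977 and 217 on intact arrays and 239, 2224 and 1885 after sham against 2031, 2458 and 2179.5 after 3VO at 24 h. Sham replicate 2 at 24 h and sham replicate 3 at 3 d, at 2224 and 2748, reached the 3VO values, so 3VO and sham overlapped at both times. Cdc20 had 5 probe sets, whose differences ran from -0.06 to 1.05 at 24 h and from -0.18 to 0.71 at 3 d, and the other probe set of Ccnb1 gave 0.28 and 0.73. Bub1b, a spindle checkpoint kinase, gave 172, 129 and 184 after sham and 163, 329.9 and 183 after 3VO at 3 d. On intact arrays it gave 87, 99 and 109, close to the minimum of 100.

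Against intact arteries at 3 d, Kif20a lay just outside the threshold and Cks2 just inside it. Kif20a gave 94, 135 and 124 on intact arrays, 193, 575 and 329.9 after sham and 715, 686 and 505 after 3VO at 24 h, and 608, 295 and 155 after sham and 441, 1773 and 1399 after 3VO at 3 d. Every operated array was above every intact one. Its differences from intact were 2.28 (adjusted p = 0.168) after 3VO at 24 h and 2.99 (adjusted p = 0.0591) at 3 d.

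Counted over the 18 mitotic genes, 2 had an unadjusted limma p under 0.05 against sham at 24 h (Mki67 and Cdk1) and 10 at 3 d, and none passed the adjusted test at either time, with lowest adjusted p of 0.668 and 0.703. Over all probe sets 6.97% and 4.73% had an unadjusted p under 0.05. The 3VO arrays were above all sham arrays for 4 mitotic genes at 24 h (Mki67, Cdk1, Cks2 and Racgap1) and for 8 at 3 d, where 6.42% and 4.34% of all probe sets were. Against intact arteries 17 of 18 were higher after 3VO at 24 h and 18 of 18 at 3 d, with medians of 0.63 and 1.10, and 14 were above all intact arrays at 3 d, where 10.3% of all probe sets were.

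**Figure D3:**
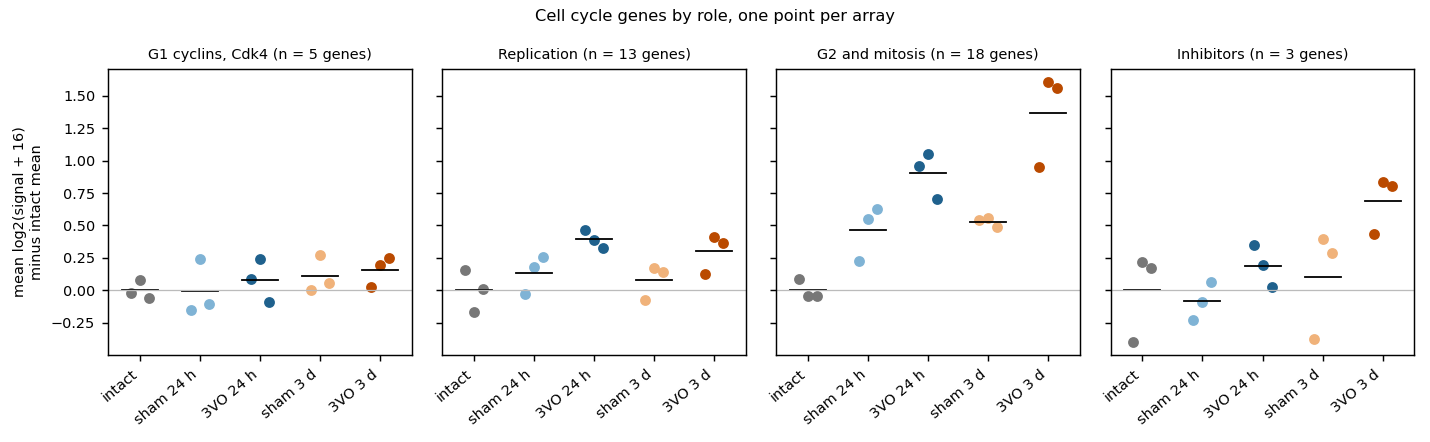
Mean log2(signal + 16) of the measured genes of each role on each of the 15 arrays, set to 0 at the mean of the intact arrays, with 3 arrays per group as points and the group mean as a line. The mitotic mean is 0.704 to 1.05 after 3VO at 24 h and 0.948 to 1.60 at 3 d, above the 0.223 to 0.624 of all 6 sham arrays, and the replication mean is 0.325 to 0.466 after 3VO at 24 h against -0.032 to 0.255 after sham.

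The mean over the 18 mitotic genes did not overlap between intact, sham and 3VO arrays when both times were pooled, while within sham and within 3VO the times overlapped. Relative to the intact mean it lay between -0.047 and 0.089 on intact arrays and between 0.223 and 0.624 after sham at 24 h. After sham at 3 d it lay between 0.49 and 0.557, and the array whose treatment text describes the occlusion had 0.542, between the other two sham arrays' 0.49 and 0.557. After 3VO it lay between 0.704 and 1.05 at 24 h and at 0.948, 1.60 and 1.56 at 3 d. These means are given as a description of the list, with no test. Over the 25 further genes of G2 and mitosis outside the list, the same mean did overlap between the groups. It was -0.201 to 0.111 on intact arrays, 0.036 to 0.417 after sham at 24 h and 0.055 to 0.226 after sham at 3 d. After 3VO it was 0.351 to 0.395 at 24 h and 0.179 to 0.558 at 3 d. Without 3VO 3 d replicate 1, the lowest of that group, the median mitotic difference from sham at 3 d was 0.99 in place of 0.69. The median at 24 h was 0.49 in place of 0.32 without 3VO 24 h replicate 3. Without sham 3 d replicate 3 and intact replicate 2 the median at 3 d was 0.70, with 18 of 18 higher, and without sham 3 d replicate 1 it was 0.65.

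The mean over the 13 replication genes was highest after 3VO at 24 h, at 0.466, 0.390 and 0.325, above all 6 sham arrays, which spanned -0.073 to 0.255. After 3VO at 3 d it was 0.125, 0.413 and 0.361, and the first of these lay within the sham range. Intact arrays spanned -0.169 to 0.160. Single arrays moved the median replication difference from sham, and the number of higher genes ran from 10 to 13 at 24 h and from 9 to 12 at 3 d when each was left out. At 24 h the median was 0.12 without sham replicate 1 and 0.39 without 3VO replicate 3, in place of 0.25. At 3 d it was 0.15 without 3VO replicate 2, in place of 0.27.

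The difference between 3VO and sham was compared between the times by role. It was larger at 3 d than at 24 h for 15 of 18 mitotic genes (83.3%) and for 5 of 13 replication genes (38.5%), and for 50.6% of all probe sets. In further lists of cell cycle genes it was larger at 3 d for 14 of 25 other genes of G2 and mitosis (56%, median change 0.05) and for 10 of 26 other replication genes (38.5%, median change -0.07). All these counts use 1 probe set per gene, and other probe sets of some members reversed the order. That of Top2a gave 1.61 at 24 h and 0.84 at 3 d, and that of Tk1 -0.19 and -0.0040. The 5 probe sets of Cdc20 disagreed, and the other one of Ccnb1 kept the order. With single arrays left out, the counts ran from 14 to 17 of 18 mitotic and from 2 to 7 of 13 replication genes, with 2 without sham 24 h replicate 3 and 3 without sham 3 d replicate 1. The replication genes with the larger difference at 24 h included Pcna (-0.38), Mcm7 (-0.32) and Mcm2 (-0.23), as 3 d effect minus 24 h effect. Among mitotic genes Kif22 (0.79), Ccnb2 (0.83) and Kif20a (0.83) had larger differences at 3 d. In the test of this change, 0 of 41 members passed the adjusted limma test, where 0% of all probe sets did. Unadjusted p-values under 0.05 were reached by Ccnd1 (0.67, 0.0482) and Ccne1 (-1.67), where 2.78% of all probe sets had one.

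Within the 3VO groups, 3 d was compared with 24 h directly. Of 18 mitotic genes 16 were higher at 3 d, with a median of 0.56, and of 13 replication genes 5, with a median of -0.02. Over all probe sets 57.1% were higher. No member passed (0 of 41, where 0% of all probe sets did), and 6 had an unadjusted limma p under 0.05, where 5.76% of all had one. Higher at 3 d were Cks2 (0.81), Ube2c (0.63), Pttg1 (0.55) and Cdca3 (0.56), and lower were Mcm7 (-0.37) and Pcna (-0.43). All 3 d arrays were above all 24 h arrays for 8 members, 7 of them mitotic and the eighth Ccnd1, where 9.34% of all probe sets were. All 3 d arrays were below for 3 members, the replication genes Mcm7, Pcna and Fen1, where 4.68% of all probe sets were. Between the sham groups 23 of 41 members were higher at 3 d, with a median of 0.01, 0 passed, where 0% of all probe sets did, and 1 had an unadjusted p under 0.05 (Ccne1), where 5.65% of all had one.

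Of the inhibitors, Cdkn1a (p21), which p53 induces, and Cdkn1b (p27), which keeps cells at rest, did not differ from sham beyond their spread. Cdkn1a gave 3981, 5639.9 and 5011 after sham and 4926, 5009.9 and 3635 after 3VO at 24 h, and 3545, 6122 and 9077 after sham and 4802, 4944 and 6542 after 3VO at 3 d, with 4540.1, 7799.5 and 5012 on intact arrays. The groups overlapped at both times, and the 95% intervals were -0.73 to 0.52 and -0.74 to 0.51. Its dimmer probe set gave 0.02 and -0.19. Cdkn1b gave 11441, 10621 and 9298 after sham and 9667, 11079.6 and 10294 after 3VO at 24 h, and 14633, 10993 and 8251 after sham and 12869.5, 10748 and 9903 after 3VO at 3 d, with 11324, 5346 and 10208 on intact arrays. Intact replicate 2 was its lowest array and all groups overlapped, with intervals of -0.54 to 0.51 and -0.51 to 0.54. Its dimmer probe set gave -0.52 and -0.13.

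Cdkn3, listed with the inhibitors, is a phosphatase that acts on cyclin-dependent kinases and is itself made in dividing cells. It gave 365, 372 and 671 after sham and 1192, 741 and 767 after 3VO at 24 h, 231, 927 and 663 after sham and 1093, 2989 and 2286 after 3VO at 3 d, and 223, 1043 and 773 on intact arrays. The 3VO arrays were above the sham arrays at both times, and the intact arrays spread across both. Its log2 difference from sham was 0.94 at 24 h (adjusted p = 0.811) and 1.87, SE 0.60 at 3 d (3.65-fold, unadjusted p = 0.00735, adjusted p = 0.904). Without sham 3 d replicate 1, its lowest array at 3 d, the value was 1.30.

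Of the chromatin and microtubule genes, Stmn1 destabilises microtubules and is also made by neurons, and Ezh2 is the methyltransferase of the Polycomb complex. Stmn1 gave 44109, 32654 and 32413 on intact arrays, 24454, 20206 and 12624 after sham and 21178, 21059.5 and 37972 after 3VO at 24 h, and 29137, 28496 and 16895 after sham and 32351, 21144 and 30506 after 3VO at 3 d. All sham arrays and all 3VO arrays at 3 d were below all intact arrays. Summed neuron markers, over 18 genes, were also high on intact arrays, at 151454 to 412338, against 82861 to 137505 on sham arrays. After 3VO these sums were 123090.0 to 239948 at 24 h and 80916 to 211138 at 3 d, so that 4 of the 6 3VO arrays were above the lowest intact array. The neuron markers' part in the Stmn1 values was not tested. Ezh2 gave 1266, 989 and 744 on intact arrays, 1048, 766 and 1268 after sham and 1453, 895 and 956 after 3VO at 24 h, and 1218, 1147 and 1231 after sham and 1368, 1546 and 1281 after 3VO at 3 d. At 3 d its 3VO arrays were just above the sham arrays, and its differences from sham were 0.09 and 0.22, against SEs of 0.30.

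Sham surgery alone was set against intact arteries. At 24 h 29 of 41 members were higher, with a median of 0.24, and 0 passed the adjusted limma test, where 0% of all probe sets did. There 6 members had an unadjusted p under 0.05, where 15% of all probe sets had one. Higher were Mki67 (1.62), Kif20a (1.40), Ccnb2 (0.98) and Ccnd3 (0.36), and lower were Ccne1 (-1.18) and Stmn1 (-0.97). At 3 d 29 of 41 were higher, with a median of 0.18, 0 passed, where 0% of all probe sets did, and 3 had an unadjusted p under 0.05, where 14.2% of all had one. These were Mki67 (1.63), Kif20a (1.28) and Cdca3 (0.56). All sham arrays were above all intact arrays for 5 members at 24 h and 3 at 3 d, where 9.96% and 9.86% of all probe sets were. All were below for Rrm1, Bub1b and Stmn1 at 24 h and for Rrm1, Mcm7 and Stmn1 at 3 d. The share of all probe sets below is not given here, so these are named without a reading of their number. By role, 14 and 16 of 18 mitotic genes were higher after sham at 24 h and 3 d, with medians of 0.33 and 0.44, and 9 and 7 of 13 replication genes, with medians of 0.06 and 0.04.

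Other genes of the cell cycle were counted in 4 further lists with no gene in common with the 53. Of 39 listed further replication genes 26 were measured, and 19 were higher after 3VO than after sham at 24 h and 18 at 3 d, with medians of 0.21 and 0.11. In this list Gins1 (2.05), of the GINS helicase complex, and Prim2 (1.57), of the primase, had unadjusted p under 0.05 at 24 h and Pold1 (0.73), the polymerase delta subunit, at 3 d. Of 48 further genes of G2 and mitosis 25 were measured, with 16 and 19 higher and medians of 0.13 and 0.16. Tubb5, a tubulin, had an unadjusted p under 0.05 at both times (0.39 and 0.45), Zwint, of the kinetochore, at 24 h (0.67), and the kinase Melk at 3 d (1.44). Zwint gave 169034, 169339 and 97276 on intact arrays, 64876, 104803 and 73216 after sham and 147775, 107173 and 125330.2 after 3VO at 24 h. The 18 neuron markers were also lower in group mean after sham at 24 h than on intact arrays, 18 of 18, and 18 of 18 were higher after 3VO than after sham at 24 h, with a median of 1.08. Their part in the Zwint values was not tested.

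Of 24 genes of E2F, Rb and growth control 17 were measured, with 12 higher at both times and medians of 0.14 and 0.09, and Tfdp1, a partner of E2F, had an unadjusted p under 0.05 at 3 d (0.40). Of 19 further inhibitors and checkpoint genes 14 were measured, with 7 higher at both times and medians of -0.01 and -0.01. The kinase inhibitor Cdkn1c (p57) gave 68744, 72875 and 74829 after sham and 38995, 48317 and 52421 after 3VO at 24 h, and the 3VO arrays were all lower (-0.64, unadjusted p = 0.00408, adjusted p = 0.45). The stress gene Gadd45a was lower by the same measure (-0.47, unadjusted p = 0.0217) at 24 h, and the checkpoint kinase Chek2 was higher at 3 d (0.74, unadjusted p = 0.0404). Of the 82 genes of the 4 lists together, none passed the adjusted limma test against sham. An unadjusted p under 0.05 was reached by 6 at 24 h (7.32%) and 5 at 3 d (6.1%), close to the 6.97% and 4.73% of all probe sets.

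Markers of the cell types an artery sample can hold also differed between the groups. Of 18 measured macrophage genes of 24 listed, 16 were higher after 3VO than after sham at 24 h and 18 at 3 d, with medians of 0.26 and 0.41. At each time 7 had an unadjusted limma p under 0.05, where 6.97% and 4.73% of all probe sets had one. Their summed signal was 390452 to 561413 after 3VO and 276324 to 372908 after sham at 24 h, and 337651 to 406604 and 249261 to 297292 at 3 d. On intact arrays it was 194640.0 to 341752. By the adjusted test 4 and 2 of the 18 macrophage genes rose in 3VO against intact at 24 h and 3 d, where 0.184% and 0.222% of all probe sets passed. After 3VO the sums of macrophage genes overlapped between the times. Those of the mitotic genes overlapped narrowly, at 25036 to 30787 at 24 h and 30545 to 45008 at 3 d. The middle array of the group had a macrophage mean of 1.007 at 24 h and 0.814 at 3 d, relative to the intact mean in log2. For the mitotic genes it was 0.955 at 24 h and 1.559 at 3 d.

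Of 10 smooth muscle genes 0 were higher after 3VO than after sham at either time, with medians of -0.67 and -0.39. At 24 h 8 had an unadjusted limma p under 0.05, all lower, where 6.97% of all probe sets had one. Of 8 measured endothelial genes 0 were higher, with medians of -0.28 and -0.26. Relative to the intact mean, smooth muscle means at 24 h were -0.479 to 0.123 after 3VO and 0.431 to 0.649 after sham, against -0.538 to 0.461 on intact arrays. Endothelial means were 0.174 to 0.76 after 3VO and 0.752 to 0.884 after sham at 24 h, against -0.349 to 0.316 on intact arrays. Of 18 neuron genes 18 were higher at 24 h and 16 at 3 d, with medians of 1.08 and 0.34. Lymphocyte markers, with 10 of 15 measured, had medians of -0.04 and 0.22, and 6 of the 10 had a mean signal below 1000. Of 7 choroid plexus genes 3 were higher at 24 h and 0 at 3 d. The other lists had 2 of 4 neutrophil, 1 of 6 erythroid, 1 of 11 fibroblast and leptomeninges, 2 of 7 pericyte, 9 of 11 astrocyte and 7 of 8 oligodendrocyte genes higher at 24 h, and 1, 0, 6, 4, 6 and 1 at 3 d. No gene of these lists was below 100 on all arrays. The part of these cell types in the cell cycle values was not tested.

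**Figure D4:**
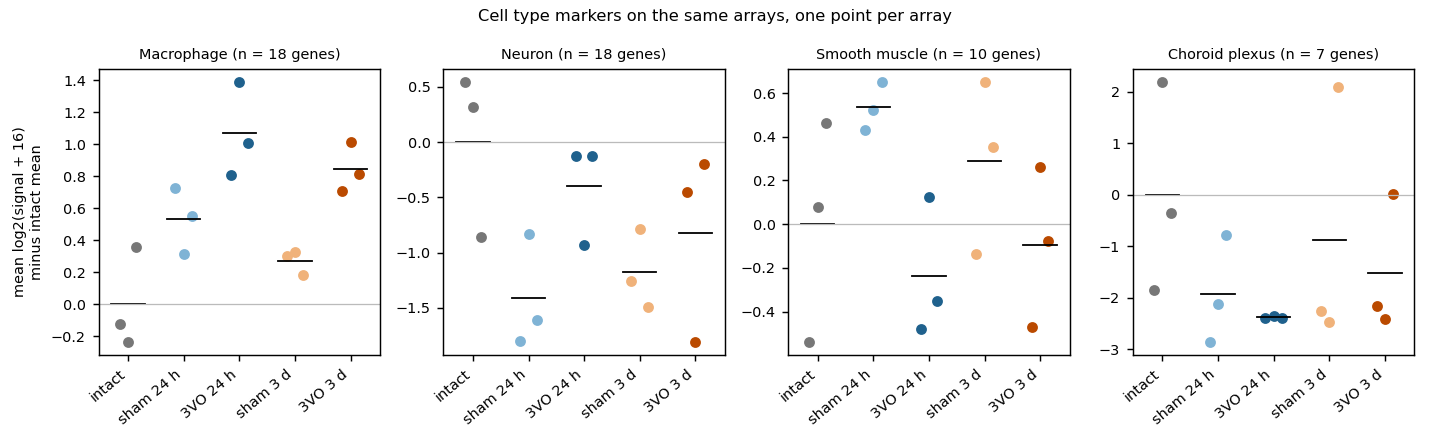
Mean log2(signal + 16) of the marker genes of each cell type on each of the 15 arrays, set to 0 at the mean of the intact arrays, with 3 arrays per group as points and the group mean as a line. Macrophage markers lie between 0.807 and 1.39 after 3VO at 24 h and between 0.710 and 1.02 at 3 d, against 0.183 to 0.729 on sham arrays, and choroid plexus markers stand out on intact replicate 2 at 2.19 and sham 3 d replicate 3 at 2.09.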

How the data were processed

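RNA of ipsilateral posterior cerebral arteries was hybridised to Affymetrix Rat230A arrays, 15 in 5 groups of 3. The deposited values are a linear intensity per probe set, scaled by the authors to 1 global level per array in GCOS (version: not given in the sources used here), per the design text and the submitters' processing notes. The table's trimmed mean (2% off each end) was 4994 to 4998, where the text states a target of 500, and it holds no detection calls.

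Of 15923 probe sets, 57 controls were left out, and the 15737 that reached a signal of 100 on 3 arrays were tested as log2(signal + 16), with no further normalization, in limma 3.58.1 (R 4.3.3) with a variance trend, 2-sided, over 9 contrasts, on 10 residual and 4.83 prior degrees of freedom. The fit was tested on simulated data. The platform annotation gave 1 gene for 12783 probe sets, several for 312 and none for 2771. Its symbols were kept as given.

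The members and lists were chosen with earlier results of these data known. All measured members were named. Values per array were given for members that passed in any contrast, for the 3 of each role with the smallest p against sham at each time, and for Pcna, Mcm2, Mcm6, Top2a, Ccnb1, Ccnd1, Ccnd2, Cdk4, Cdkn1a and Cdkn1b in any case. Kif20a, Plk1, Bub1b, Mcm5 and Cdkn1c got array values after theirs were seen. Alternatives were other pseudocounts, signal minima, normalizations, variance models and probe set rules, the contrast's groups alone, array number as a covariate, and each array left out. Promoters came from RefSeq (GRCr8). Figures used Python 3.11.15 and matplotlib 3.10.9.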

Additional observations from a re-analysis of the deposited data

How the results depend on the processing

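No paired analysis was possible because the labels give the groups no shared replicate numbers. Under all 27 alternatives 0 members passed the adjusted limma test in 3VO against sham at either time, in the comparisons between times or in sham against intact. The 22 single-gene values recomputed were those with an unadjusted limma p under 0.05 against sham, or past the adjusted test in any contrast, in the main fit. None changed sign, but values chosen for their distance from 0 seldom do, so this says little about stability. The median of the 3 inhibitors against sham, -0.01 at 24 h and 0.02 at 3 d, did change sign, with a range of -0.08 to 0.06 at 24 h and -0.03 to 0.22 at 3 d when single arrays were left out, and of -0.05 to 0.01 and -0.06 to 0.21 under the 12 other alternatives. The count that passed in 3VO at 24 h against intact, 1, was 0 under a minimum of 1000 with 160 as pseudocount, quantile normalization, median centring, no variance trend, the groups of the contrast alone, array number as a covariate, or both arrays rich in choroid plexus markers left out. Over all probe sets 29, 27, 15, 8, 3, 1 and 9 passed in these fits, in this order, against 29 in the main fit. The count at 3 d, 3, was 1 with quantile normalization, no variance trend or the choroid plexus-rich arrays left out. There 27, 4 and 7 of all probe sets passed, against 35 in the main fit. It was 0 with median centring, the contrast's groups alone or array number as a covariate, where 2, 0 and 3 in all passed. It was 4 with array weights and with the mean of all probe sets of a gene, where 28 and 40 in all passed. Leaving out 1 array at a time gave 0 to 3 at 24 h and 0 to 5 at 3 d, both highest without intact replicate 3. Without that array 227 and 258 of all probe sets passed at 24 h and 3 d. The median mitotic difference from sham at 3 d ran from 0.60 to 0.99 when single arrays were left out, and was 0.99 without 3VO 3 d replicate 1. Over the 12 other alternatives 13 to 17 mitotic genes were higher at 24 h and 15 to 18 at 3 d, and 11 to 12 and 10 to 12 of 13 replication genes. These mitotic counts are out of 18, except that the minimum of 1000 left out Aurka, Bub1b and Kif20a. A low count can thus come from a shorter list and not from a change of sign. The 3VO effect was larger at 3 d for 13 to 16 mitotic genes, with the same limit on their number. It was larger at 3 d for 3 to 7 of 13 replication genes, 3 with array number as a covariate. Leaving out 1 array gave 14 to 17 and 2 to 7. Of single members, 537 values kept their side of the threshold, most of them values that had not passed in the main fit either. The 56 that no longer passed were all refits of the 4 calls against intact arteries. With 1 array left out, Mki67 passed in 6 of 15 fits at 24 h and 12 at 3 d, Cks2 in 3 and Cdca3 in 5. Under the 12 other alternatives these passed in 5, 9, 6 and 6, in this order. Median centring and array number change the scale or the model, and the cause of the lost calls was not tested. The table gives no detection calls, so how far dim genes such as Mki67 on intact arrays stood above background is not known.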
